A study of Mus musculus with 11 samples.

Results

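Leucine and serine tRNAs were taken as every abundance entry whose name gives leucine (Leu) or serine (Ser) as the amino acid. These were 42 of the 301 tRNA entries, 20 for leucine with 5 anticodons and 22 for serine with 5 anticodons. Entries are called by amino acid, anticodon in DNA letters and the number given in the tables, so LeuCAA8 is a leucine tRNA with the anticodon CAA. The meaning of that number was not used here.

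Most cytosolic tRNAs have a short variable loop between the anticodon arm and the T arm. In leucine, serine and selenocysteine tRNAs this loop is a long stem-loop, the variable arm, which gives these molecules the name type II tRNA. Seryl-tRNA synthetase, the enzyme that loads serine, grips that arm and does not read the anticodon, so tRNAs with unlike anticodons receive the same amino acid. METTL1, a methyltransferase, works with its partner WDR4 to place N7-methylguanosine (m7G) in the short variable loop of other tRNAs. Abundance, the quantity measured here, does not by itself show methylation.

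The anticodons fall into 4 codon groups. Leucine codons UUR (R is A or G) are read by the anticodons TAA and CAA, with 9 entries, and the codons CUN (N is any base) by AAG, CAG and TAG, with 11. Serine codons UCN are read by AGA, CGA, TGA and GGA, with 11 entries, and the codons AGY (Y is C or U) by GCT, with 11.

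The cells were mouse embryonic fibroblasts (MEF) with SV40 T antigen, a viral protein that lets fibroblasts divide without limit. The labels name the fibroblasts themselves Wt in all groups. They had been stably transduced with empty vector, with METTL1-Wt and WDR4, or with METTL1-Mut and WDR4. The labels' protocols name pBabe vectors and selection in puromycin and G418 for empty vector and wild-type cells, describe the cells as stable clones, and give no change for the mutant. The tables hold only tRNA, so neither the cell type nor the amount of METTL1 or WDR4 could be checked here.

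Of 11 libraries in the series, 6 input libraries were used, 2 for each construct, made from small RNA treated with the demethylase AlkB and not cleaved. Values are RPM, reads per 1000000 tRNA reads, so each is a share of the tRNA reads and says nothing of how much tRNA a cell held. The values imply 5405585 to 16003708 reads per library, of which 862737 to 2746985 were counted in leucine or serine entries. The latter are sums over entries, so a read counted in several entries would enter more than once. Nothing in the labels says that the 2 libraries of a construct were separate cultures, so the spread between libraries may be technical. The p-values rest on that spread and on limma's prior, which is drawn from all entries. An entry's SE and p-value therefore do not measure the spread of its own libraries alone. In bulk RNA, fewer cells of a kind and less of a tRNA per cell cannot be told apart.

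A feature of the tRNA genes that was not used to choose the entries is their length. The RefSeq annotation of GRCm38.p6, the assembly that mm10 names, lists 47 nuclear leucine and serine tRNA genes under the n-T symbols, and 46 of them are 82 bases or longer. Among the 355 genes for other amino acids 18 reach that length, and the median is 72 bases against 82. The 4 LeuCAA genes, at 105 to 107 bases, are the longest; in vertebrates this tRNA gene is known to carry an intron. The exception among serine genes is the single SerGGA gene, at 73 bases, which is short for a tRNA with a long arm. Chromosome 13 holds 19 of the 47 leucine and serine genes and 86 of the 355 genes for other amino acids. The genes were not linked to the entries, because the tables give no positions.

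Leucine and serine entries together held 17.2% and 15.96% of tRNA RPM in libraries 1 and 2 of empty vector cells, 17.1% and 17.3% with wild-type METTL1, and 15.7% and 19.6% with mutant METTL1. The second mutant library stood above the other 5. Leucine entries held 12.1% and 11.5% in empty vector, 11.6% and 12.1% with wild type, and 11.5% and 14.8% with the mutant. Serine entries held 5.11% and 4.51%, 5.54% and 5.18%, and 4.20% and 4.82%, in the same order. With 2 libraries against 2 an exact permutation test cannot give a p below 0.33, so no test was made of these shares.

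LeuCAA was the anticodon with the largest share, 6.89% ± 0.247 of tRNA reads in empty vector cells (SD, n = 2). It was followed by LeuCAG with 2.50% ± 0.0920, SerGCT with 1.66% ± 0.0580, SerAGA with 1.16% ± 0.212 and LeuAAG with 1.09% ± 0.0335. SerTGA (0.992% ± 0.113), LeuTAG (0.992% ± 0.0368) and SerCGA (0.985% ± 0.0402) did not differ beyond their spread, nor did SerAGA and LeuAAG. LeuTAA held 0.282% ± 0.0195 and SerGGA 0.0136% ± 0.000097. These shares are of reads, not divided by tRNA length. They would overstate an anticodon whose reads were counted in several entries.

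**Figure D1:**
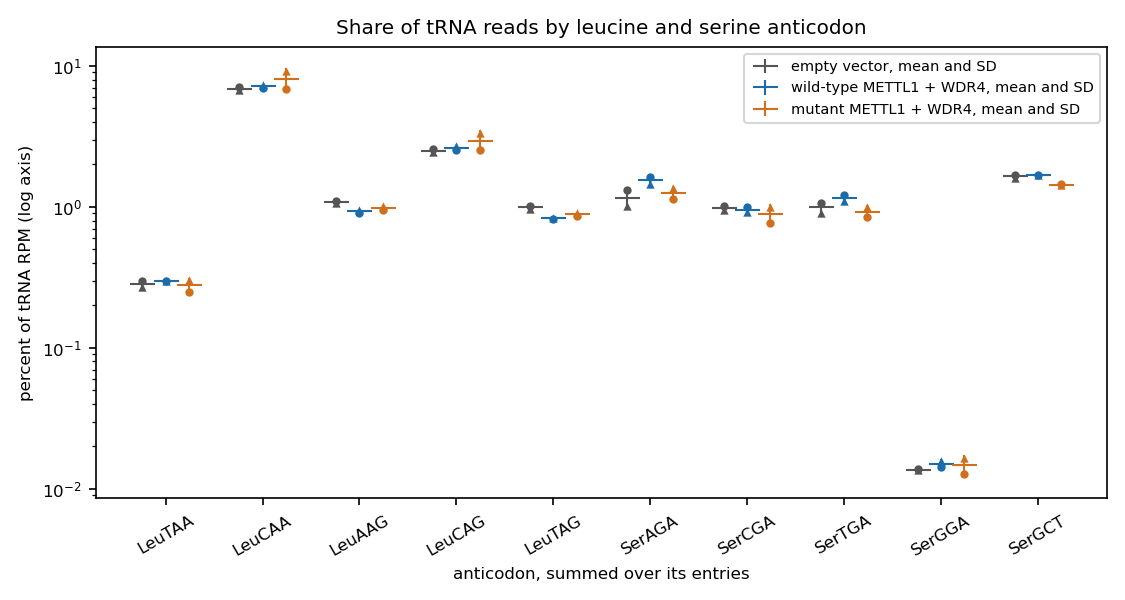
Percent of tRNA RPM (log axis) for each leucine and serine anticodon, summed over its entries, in empty vector, wild-type METTL1 with WDR4 and mutant METTL1 with WDR4 cells; circles are library 1, triangles library 2, and dashes with bars the mean and SD of 2 libraries. LeuCAA lies at 6.72% to 9.26% and SerGGA at 0.0128% to 0.0166%, and the second mutant library is the highest for LeuCAA and LeuCAG.

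Single entries ranged over several orders of magnitude. In the mean of 6 libraries 5 entries lay over 10000 RPM, 19 between 1000 and 10000, 9 between 10 and 1000, 5 between 1 and 10, and 4 under 1 RPM. The 5 highest were LeuCAG8, LeuCAA8, LeuCAA2, LeuCAA5 and LeuCAA3. Within LeuTAA, 2 entries held most reads: LeuTAA8 with 46.8% and LeuTAA5 with 41.8% in empty vector cells. In SerGCT, SerGCT434, SerGCT2454 and SerGCT7906 held 33.1%, 32.5% and 30.6%, and the other 8 entries shared the rest. LeuCAA11 was the only leucine or serine entry listed at 0, in the second empty vector library, and a count of 0 allows up to 3 reads there, or 0.555 RPM (counting error only). Elsewhere it lay between 0.437 and 1.03 RPM.

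**Figure D2:**
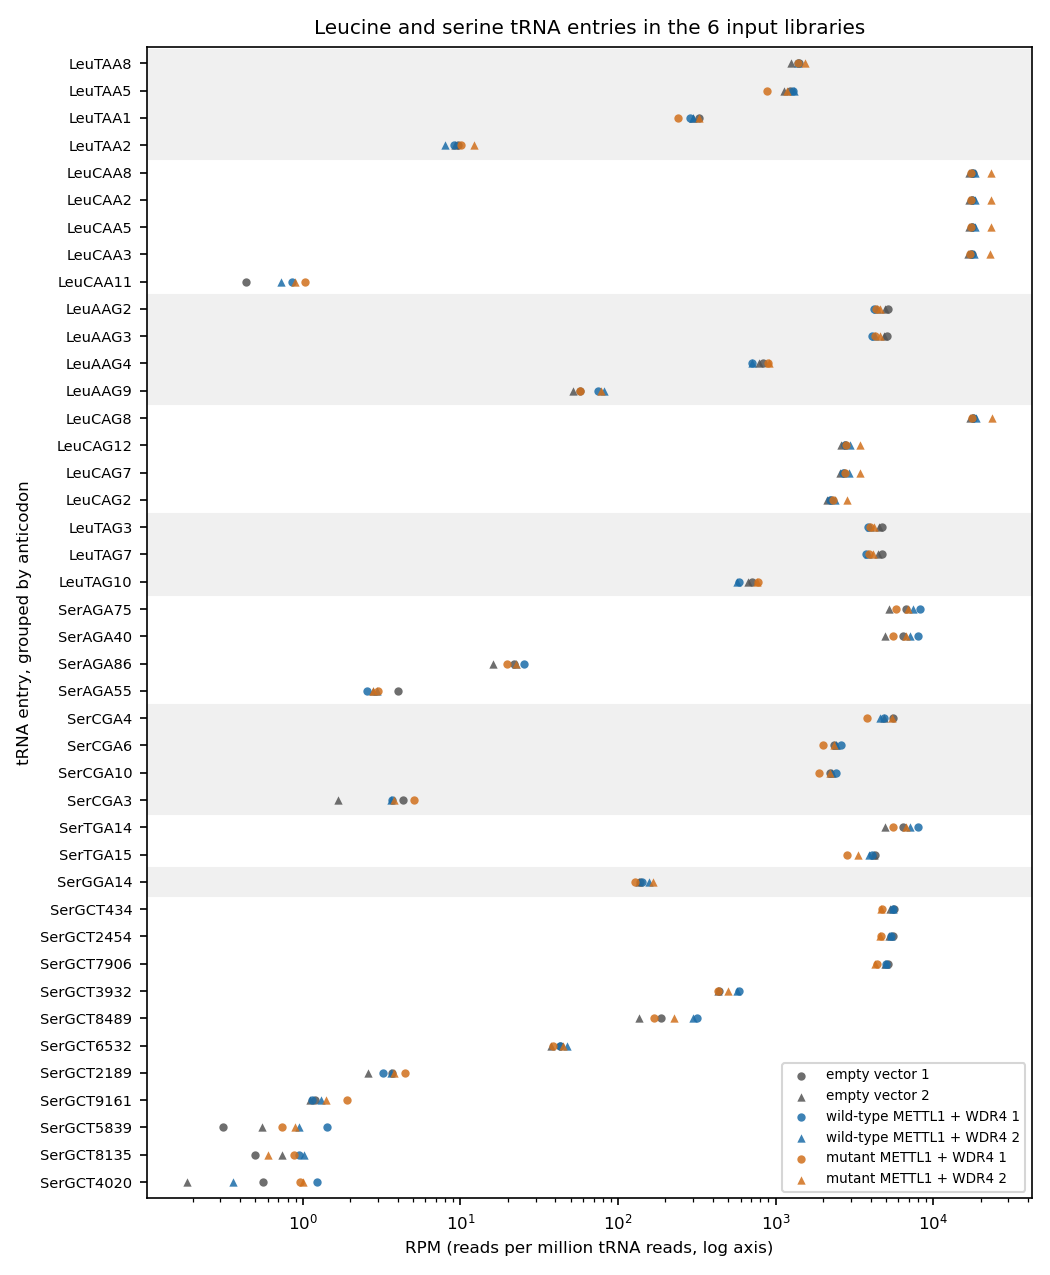
RPM (log axis) of the 42 leucine and serine entries, grouped by anticodon, with 1 point for each of the 6 input libraries (grey empty vector, blue wild-type METTL1, orange mutant METTL1; circles library 1, triangles library 2). The value of 0 for LeuCAA11 in empty vector library 2 is not drawn, and 5 entries lie over 10000 RPM.

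Several entries carried almost the same value in every library, so they may not be separate measurements. Where the mean level reached 10 RPM, 15 pairs of leucine or serine entries differed by under 5% in all 6 libraries, and 5 of these pairs joined different anticodons. With a pair of leucine and proline entries, this made 7 groups with 16 leucine or serine entries. The sources used here do not give how reads fitting several entries were counted, and its part in the results was not tested.

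The pairs across anticodons go against the entry names. LeuCAG8 stood at 17930 and 17064 RPM in empty vector, 17765 and 18612 with wild type, and 17493 and 23498 with the mutant, 0.590% to 0.814% above LeuCAA8 in each library. The next LeuCAG entry, LeuCAG12, lay between 2589 and 3449 RPM. LeuCAG8 made up 70.0% of the LeuCAG reads in empty vector cells. SerTGA14 lay 0.0416% to 0.105% above SerAGA40 in each library, while SerTGA15, the other TGA entry, had 0.495 to 0.853 times its reads. LeuAAG9 had a partner outside leucine: the proline entry ProAGG41 lay at most 0.386% above it in all 6 libraries.

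**Figure D3:**
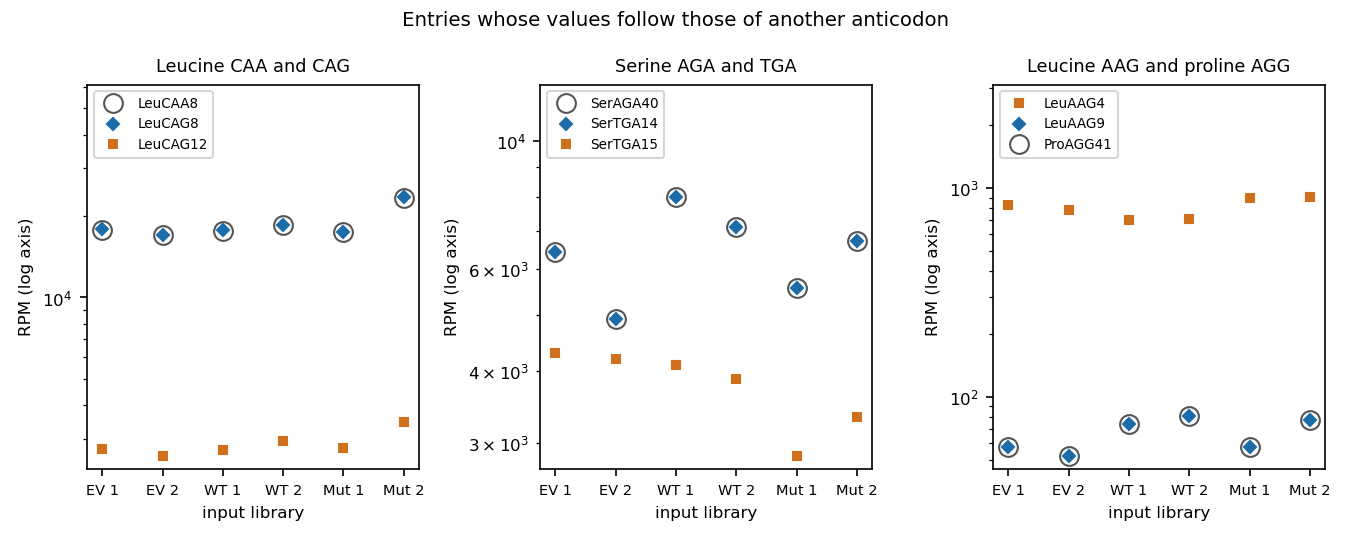
RPM (log axis) in the 6 input libraries (EV empty vector, WT wild-type METTL1, Mut mutant METTL1) of 3 entries (filled diamonds) that follow an entry of another anticodon (open circles), beside another entry of their own anticodon (squares). LeuCAG8 lies on LeuCAA8, SerTGA14 on SerAGA40 and LeuAAG9 on ProAGG41.

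The first comparison asked which of these tRNAs differ in abundance between cells with wild-type METTL1 and WDR4 and cells with empty vector. Higher with wild-type METTL1 were 2 of 4 SerAGA entries, 2 of 11 SerGCT entries, both minor ones, SerTGA14 and LeuAAG9. Lower were 2 of 4 LeuAAG entries and all 3 LeuTAG entries, by 0.23 to 0.27 on the log2 scale. At a limma adjusted p (Benjamini-Hochberg, BH, over all entries) under 0.05, 6 of the 42 entries were higher and 5 lower, against 30.2% higher and 7.31% lower among all 301 entries. The higher ones were 1 leucine and 5 serine entries, and the lower ones 5 leucine entries. These are not all separate measurements: SerTGA14 carries the values of SerAGA40, and LeuAAG9 those of ProAGG41. SerAGA75 also lay close above SerAGA40, at 5201 against 4915 RPM in empty vector library 2 and 8272 against 7992 RPM in wild-type library 1. The median log2 fold change was 0.06 over the 42 entries and 0.16 over all 301. Leucine entries had a median of 0.05 and serine entries of 0.15.

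These calls depend on the scale, although no called entry changed its sign under the scaling below. The deposited values sum to about 1000000 in each library, and dividing each library by its median ratio to the others, a setting chosen after seeing the data, moved the median over all 301 entries by −0.14 on the log2 scale. Then 3 leucine and serine entries were higher (LeuAAG9, SerGCT3932 and SerGCT8489) and 8 lower, in place of 6 and 5, and of all 301 entries 18.6% were higher and 14% lower. LeuAAG4, SerCGA4 and SerTGA15 joined the 5 lower ones.

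SerGCT8489 had the largest change of the 42 entries on the log2(RPM + 1) scale. The ratio of mean RPM was larger for LeuCAA11, SerGCT5839 and SerGCT4020, which rest on 15 reads or fewer per library and were not called. It stood at 188 and 136 RPM in empty vector libraries and at 316 and 299 RPM with wild-type METTL1, and the groups did not overlap. Its mean was 162 ± 36.7 against 308 ± 11.8 RPM (SD, n = 2 libraries each), a ratio of 1.90 (log2 fold change 0.94 with SE 0.12 and limma adjusted p = 5.1e-06). SerGCT3932 rose from 439 and 432 RPM to 587 and 570 RPM (log2 fold change 0.41 with SE 0.10 and limma adjusted p = 0.0024). Both belong to the tRNAs that read the serine codons AGC and AGU.

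The abundant entries of the same anticodon did not follow. SerGCT434 stood at 5608 and 5343 RPM in empty vector cells and at 5522 and 5517 RPM with wild type (log2 fold change 0.01), and SerGCT2454 and SerGCT7906 had log2 fold changes of 0.00 and −0.01. SerGCT8489 therefore went from 0.0336 and 0.0255 times the reads of SerGCT434 to 0.0572 and 0.0543 times. When each entry was taken as a share of its own anticodon, a measure chosen after seeing the data, SerGCT8489 (log2 fold change 0.91, limma adjusted p = 0.037) and SerGCT3932 (0.38, limma adjusted p = 0.016) were higher. The SerGCT3932 call on the RPM scale was lost without either wild-type library (0.39 and 0.43, limma adjusted p = 0.082 and 0.051), while that of SerGCT8489 passed in all 13 alternatives.

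In the AGA anticodon, whose first base is turned into inosine so that it reads several UCN codons, SerAGA75 and SerAGA40 were higher. SerAGA75 stood at 6680 and 5201 RPM in empty vector cells and at 8272 and 7397 RPM with wild type. The groups did not overlap, and the spread was widest in empty vector (5941 ± 1045 against 7835 ± 618 RPM, SD, n = 2). Its log2 fold change was 0.41 (SE 0.09, limma adjusted p = 0.0018), and that of SerAGA40 was 0.42 (SE 0.10, limma adjusted p = 0.0018). SerTGA14, near-identical to SerAGA40, had the same change, whereas SerTGA15 stood at 4295 and 4199 RPM in empty vector cells and at 4104 and 3882 RPM with wild type (log2 fold change −0.09, limma adjusted p = 0.41). The 2 minor AGA entries did not pass: SerAGA86 had a log2 fold change of 0.33 and SerAGA55 of −0.21. The calls of SerAGA75, SerAGA40 and SerTGA14 were lost without wild-type library 1 (SerAGA75 0.33, limma adjusted p = 0.10) and under the median ratio scaling (0.27, limma adjusted p = 0.072), and also with libraries centred on their median or with no variance trend. Without empty vector library 2 the SerAGA75 change was 0.23 and passed.

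The 5 lower entries were LeuAAG2, LeuAAG3, LeuTAG3, LeuTAG7 and LeuTAG10, all readers of CUN codons. LeuTAG7, with the largest fall, stood at 4707 and 4467 RPM in empty vector cells and at 3733 and 3851 RPM with wild type, without overlap (log2 fold change −0.27 with SE 0.08 and limma adjusted p = 0.0095). LeuAAG2 went from 5132 and 4927 RPM to 4227 and 4370 RPM (log2 fold change −0.23 with SE 0.08 and limma adjusted p = 0.028). LeuTAG10, at 710 and 664 RPM in empty vector, went to 581 and 565 RPM (log2 fold change −0.26, limma adjusted p = 0.039). LeuAAG3 and LeuTAG3 changed by −0.24 and −0.25. LeuAAG4, at 829 and 788 RPM in empty vector cells and at 706 and 711 RPM with wild type, did not pass (log2 fold change −0.19, limma adjusted p = 0.12).

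All 5 falls lost their call without wild-type library 1 or 2, each time with an estimate below 0 (LeuTAG7 −0.25 and −0.30). They also lost it when all 6 libraries were fitted together, when libraries were centred on their median and with no variance trend. LeuTAG10 lost it without empty vector library 1 as well. Of all 301 entries, 7.31% were lower in the main fit, 0.664% with all 6 libraries together, 0.997% when centred and 1.33% with no variance trend. Lower calls were also few over all 301 entries without either wild-type library. LeuAAG2 and LeuAAG3 are near-identical in the sense above, as are LeuTAG3 and LeuTAG7, and with such entries merged 3 leucine features were lower. Across the 2 anticodons, LeuTAG3 had 0.906 to 0.928 times the reads of LeuAAG2 in the 6 libraries. LeuTAG7 had 0.901 to 0.928 times those of LeuAAG3. The AAG and TAG falls may therefore not be separate measurements, which was not tested.

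LeuAAG9 moved against the other AAG entries, from 57.4 and 52.0 RPM in empty vector to 74.2 and 81.1 RPM with wild type (log2 fold change 0.50 with SE 0.12 and limma adjusted p = 0.0024). It passed in all 13 alternatives. Its values are those of ProAGG41 (log2 fold change 0.50, limma adjusted p = 0.0024), so whether the rise belongs to a leucine or a proline tRNA cannot be told apart from these tables.

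The leucine anticodons CAA and CAG, which hold most leucine reads, showed no call. LeuCAA8 stood at 17823 and 16957 RPM in empty vector cells and at 17633 and 18462 RPM with wild type, which overlap (log2 fold change 0.05, SE 0.06). The 4 LeuCAG entries had log2 fold changes of 0.06 to 0.09. In LeuTAA, the log2 fold change was 0.07 for LeuTAA8, 0.14 for LeuTAA5, −0.10 for LeuTAA1 and −0.13 for LeuTAA2, with no call. In SerCGA the highest entry, SerCGA4, had −0.13 and was not called. SerGGA14 stood at 137 and 136 RPM against 142 and 158 RPM (log2 fold change 0.14, limma adjusted p = 0.36).

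**Figure D4:**
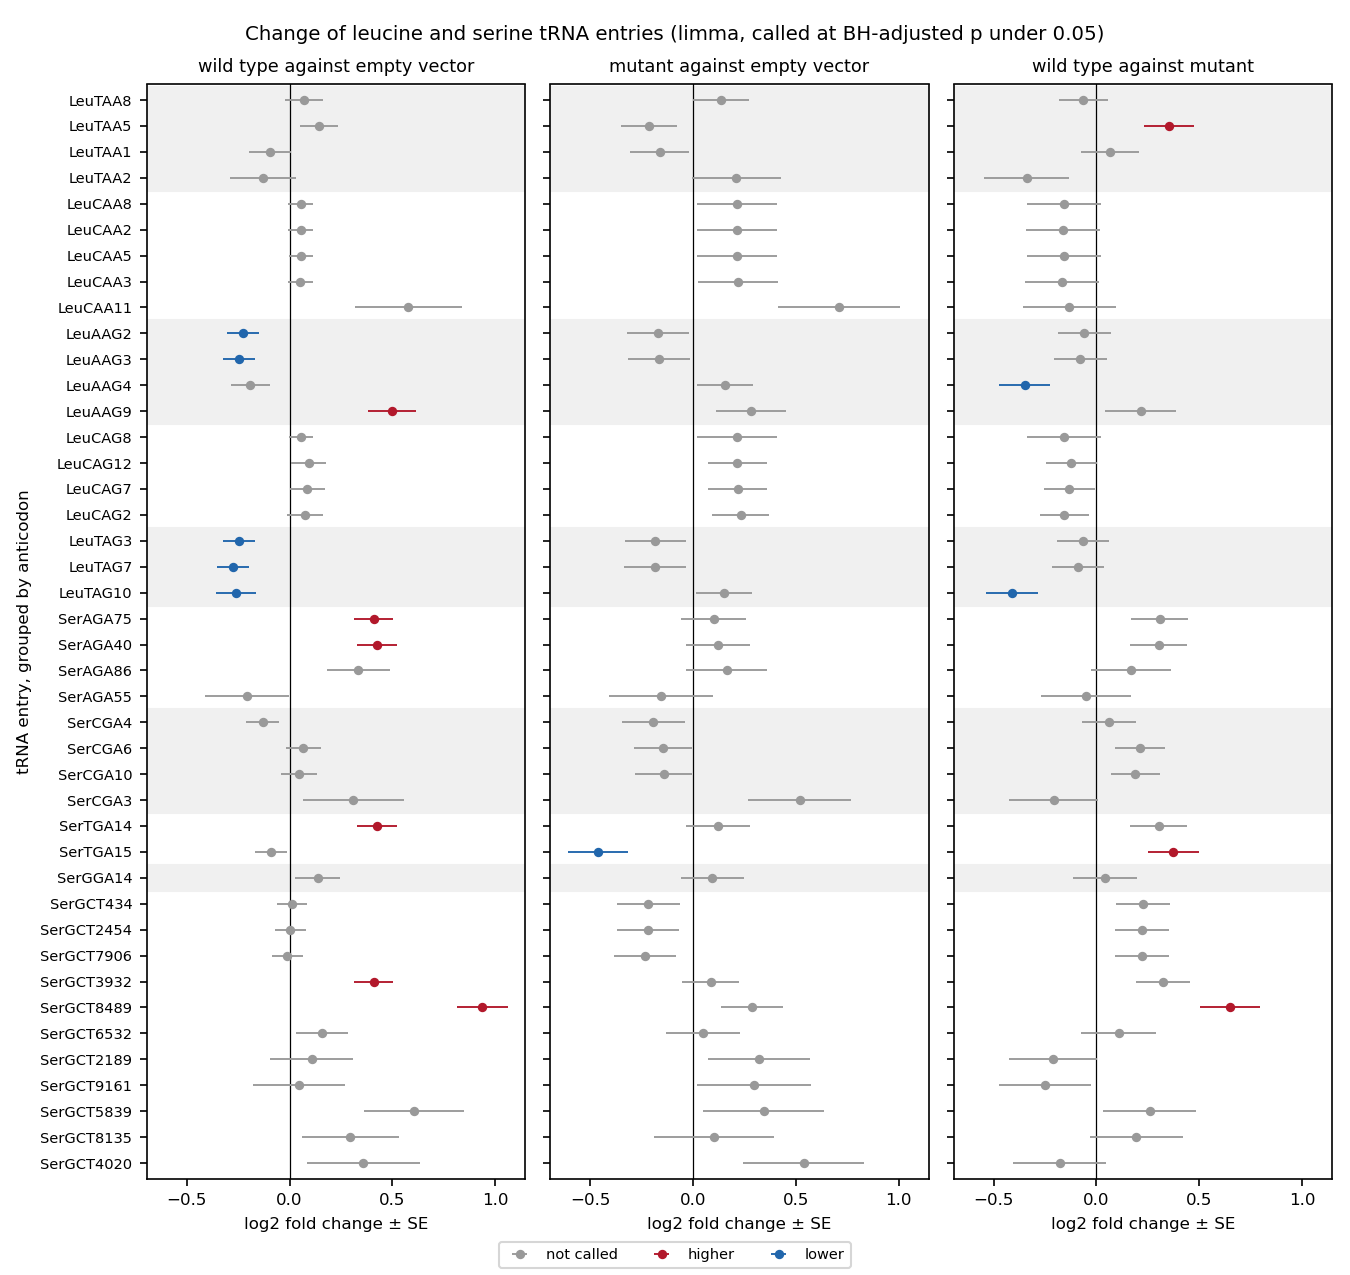
Log2 fold change with limma's SE for the 42 leucine and serine entries, grouped by anticodon, in the comparisons of wild-type METTL1 with empty vector, mutant METTL1 with empty vector, and wild-type with mutant METTL1; red is higher, blue lower and grey not called at a BH-adjusted p under 0.05 over 301 entries. In the first comparison 6 entries are higher and 5 lower, in the second 0 and 1, and in the third 3 and 2.

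Summed over each anticodon and fitted over all 54 anticodon families, SerAGA was higher with wild-type METTL1 and none of the 10 leucine and serine sums was lower, against 22.2% higher and 5.56% lower among all 54. The SerAGA sum rose from 13128 and 10135 RPM to 16292 and 14528 RPM (log2 fold change 0.42 with SE 0.11 and limma adjusted p = 0.0014). Without empty vector library 2 (0.23), wild-type library 1 (0.33) or wild-type library 2 (0.50) it did not pass (limma adjusted p = 0.14, 0.37 and 0.13), nor under the median ratio scaling (0.34, limma adjusted p = 0.11). The LeuTAG sum went from 10178 and 9658 RPM to 8181 and 8375 RPM (log2 fold change −0.26, limma adjusted p = 0.054), which passed in 6 of 12 alternatives. LeuAAG had −0.23 (limma adjusted p = 0.098) and SerTGA 0.22 (limma adjusted p = 0.11). LeuCAA, LeuCAG, LeuTAA, SerCGA, SerGGA and SerGCT lay between −0.04 and 0.14.

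The authors' deposited table for wild type gives an unadjusted p under 0.05 to 3 leucine and serine entries that were higher and 6 that were lower, against 22.9% and 5.98% of all 301 entries. Its fold changes, 1.90 for SerGCT8489 and 1.32 for SerAGA75, are ratios of the same group means, so they give no separate support. The unadjusted p there, from a test not stated, was 0.033 for SerGCT8489. It was 0.16 for each of SerAGA75, SerAGA40 and SerTGA14, which limma called higher.

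The second comparison set mutant METTL1 with WDR4 against the same empty vector libraries. The entry called was SerTGA15, a serine tRNA for UCN codons, which stood at 4295 and 4199 RPM in empty vector and at 2850 and 3329 RPM with the mutant, without overlap. Its mean was 4247 ± 68.0 against 3089 ± 338 RPM (SD, n = 2; log2 fold change −0.46 with SE 0.15 and limma adjusted p = 0.028). No other of the 42 entries was called, which made 0 higher and 1 lower, against 7.31% higher and 0.997% lower among all 301 entries. At an unadjusted limma p under 0.05 there were 3 of the 42, against 15.9% of all 301. The call was lost without either empty vector library (−0.45 and −0.48, limma adjusted p = 0.29 and 0.45) and without mutant library 1 (−0.35, limma adjusted p = 0.16), and also with no variance trend. The other TGA entry, SerTGA14, had a log2 fold change of 0.12.

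The mutant libraries differed from each other more than those of the other constructs. The median SD of the 42 entries on the log2 scale was 0.17 between mutant libraries, 0.06 between empty vector and 0.06 between wild-type libraries. LeuCAA8 stood at 17391 and 23330 RPM with the mutant, against 17823 and 16957 RPM in empty vector. Its log2 fold change of 0.21 (SE 0.19) did not pass, and the LeuCAG entries had 0.21 to 0.23. Without mutant library 1, 7 entries were higher: the 4 abundant LeuCAA entries, LeuCAG8, LeuAAG9 and SerGCT8489. Of all 301 entries 7.64% were then higher and 1.66% lower. Without mutant library 2, none of the 42 was higher and SerTGA15 and SerCGA4 were lower, against 8.31% higher and 1.66% lower of all 301.

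The 3 abundant SerGCT entries lay below empty vector in both mutant libraries without passing in limma. SerGCT434 stood at 4750 and 4674 RPM against 5608 and 5343 RPM (log2 fold change −0.22 with SE 0.15 and limma adjusted p = 0.49). The authors' deposited table for the mutant, by a test not stated, gives these 3 and SerTGA15 an unadjusted p under 0.05. That made 4 lower leucine and serine entries and 1 higher, LeuAAG4, against 11 lower and 21 higher of all 301. The entries that were higher or lower with wild-type METTL1 had these log2 fold changes here, none called, against the same empty vector libraries: SerGCT8489 0.29 (limma adjusted p = 0.33), SerGCT3932 0.09, SerAGA75 0.10, LeuAAG9 0.28, LeuAAG2 −0.17 and LeuTAG7 −0.18. LeuTAG10 had 0.15 and LeuAAG4 0.16, on the other side of 0 from their values with wild type. None of the 10 anticodon sums was called in limma, against 3.7% higher and 1.85% lower among all 54. At an unadjusted limma p under 0.05 there were 0 of the 10, against 13% of all 54. Their log2 fold changes ran from −0.21 for SerGCT to 0.22 for LeuCAG.

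The third comparison set wild-type directly beside mutant METTL1. SerGCT8489 was higher with wild type, at 316 and 299 RPM against 170 and 226 RPM (log2 difference 0.65 with SE 0.14 and limma adjusted p = 0.00024). SerTGA15 was higher with wild type, at 4104 and 3882 RPM against 2850 and 3329 RPM (log2 difference 0.37 with SE 0.12 and limma adjusted p = 0.024), and wild type lay near empty vector. LeuTAA5, a reader of UUR codons, stood at 1295 and 1306 RPM with wild type, 877 and 1181 RPM with the mutant and 1231 and 1129 RPM in empty vector cells (log2 difference 0.35 with SE 0.12 and limma adjusted p = 0.028).

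Lower with wild type were LeuTAG10 and LeuAAG4, both minor entries for CUN codons. LeuTAG10 stood at 581 and 565 RPM with wild type, 769 and 757 RPM with the mutant and 710 and 664 RPM in empty vector cells (log2 difference −0.41 with SE 0.13 and limma adjusted p = 0.012). LeuAAG4 stood at 706 and 711 RPM with wild type, 899 and 905 RPM with the mutant and 829 and 788 RPM in empty vector cells (log2 difference −0.35 with SE 0.12 and limma adjusted p = 0.038). For both entries the 3 groups did not overlap, with empty vector in the middle. Both were picked by their call between wild type and mutant, which favours entries whose libraries lie apart in these groups. The share of all entries with this order was not counted. Whether LeuTAG10 and LeuAAG4 are separate measurements was not tested. The abundant LeuTAG7 and LeuAAG2 did not pass (−0.09 and −0.06).

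In all, 3 of the 42 entries were higher with wild type and 2 lower, against 11.3% and 3.65% of all 301, with a median log2 difference of −0.05 against 0.10. No call held without wild-type library 1 or 2, and calls were also few there over all 301 entries. Without wild-type library 1 the median log2 difference was −0.01 over the 42 entries and 0.12 over all 301. Without wild-type library 2 it was −0.05 and 0.07. Without mutant library 1 the counts were 5 higher and 12 lower, with all 4 LeuCAG and the 4 abundant LeuCAA entries lower, against 26.2% higher and 12.3% lower of all 301. Without mutant library 2 they were 15 and 2, against 28.9% and 14.3%. LeuTAG10, LeuAAG4, SerTGA15 and SerGCT8489 kept their call without either mutant library, while LeuTAA5 lost it without mutant library 1 (0.14). The median ratio scaling shifted the median difference of all entries by −0.11 and left SerGCT8489, LeuTAG10 and LeuAAG4 called. Centring on the median ended the call of LeuAAG4, and with no variance trend SerGCT8489 alone was called. None of the 10 anticodon sums passed in limma, against 3.7% higher and 1.85% lower among all 54. At an unadjusted limma p under 0.05 there were 3 of the 10 sums, against 27.8% of all 54. The largest difference was that of SerTGA (0.33, limma adjusted p = 0.059), followed by SerAGA (0.30, limma adjusted p = 0.059).

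Selenocysteine tRNA, the other kind with a long variable arm, had a single entry, SeCTCA2. Empty vector libraries had 17.4 and 15.9 RPM of it, wild-type libraries 32.1 and 29.6 RPM, and mutant libraries 24.6 and 25.2 RPM, without overlap between groups. Its log2 fold change was 0.85 with wild type (SE 0.14, limma adjusted p = 7.3e-05) and 0.56 with the mutant (SE 0.20, limma adjusted p = 0.055). On this log2(RPM + 1) scale SerGCT8489 (0.94) was the one leucine or serine entry with a larger change with wild type.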

How the data were processed

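Input libraries were made with a small RNA kit from AlkB-treated small RNA, per the labels' protocols. Bowtie, Trim Galore and bedtools are named, with the build mm10, in the submitters' processing notes. The authors deposited 2 tables with the same 301 entries and the same empty vector columns. The authors gave RPM per library, a fold change as the ratio of group means, its log2 value, a p-value and its −log10; the test behind the p-value was not stated in the labels. The 5 cleaved libraries were not analysed here.

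RPM was transformed to log2(RPM + 1), and each comparison was fitted on its 4 libraries in limma 3.58.1 (R 4.3.3) with a trended prior, without covariates or filter. P-values were adjusted by Benjamini-Hochberg (BH) over 301 entries, or over 54 anticodon sums, and called under 0.05. The fit was tested on simulated data. All RPM values were whole multiples of 1 read within 0.01 reads, which gives the implied totals. Named entries are those called in any comparison, the highest of each anticodon and those listed at 0; other entries named were chosen after their values were seen. The members and lists were chosen with earlier results of these data known.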

Additional observations from a re-analysis of the deposited data

How the results depend on the processing

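Counts of leucine and serine entries called higher and lower were recomputed under each alternative. For wild type against empty vector (6 and 5) they were 3 and 0 with libraries centred on the median level and 3 and 8 with median ratio scaling. They were 4 and 0 without the variance trend and 6 and 0 with all 6 libraries in one fit. With near-identical entries merged they were 4 and 3, and as shares of the own anticodon 4 and 1. Over all entries, 16.9% were higher and 0.997% lower when centred, 18.6% and 14% with median ratio scaling, and 24.6% and 1.33% without the trend. With all 6 libraries in one fit the percentages were 22.9% and 0.664%, with entries merged 27.1% and 3.24%, and as shares of the own anticodon 11% and 6.19%. The merged counts leave out LeuAAG9, which merged with ProAGG41, although that merged feature was called higher. Leaving out 1 library gave 2 to 10 higher and 0 to 6 lower. For the mutant against empty vector (0 and 1) they were 1 and 0 without the trend and 0 and 0 as shares of the own anticodon, and leaving out 1 library gave 0 to 7 higher and 0 to 2 lower. For wild type against mutant (3 and 2) they were 3 and 1 centred, 1 and 0 without the trend, 1 and 2 with median ratio scaling and 0 and 0 as shares of the own anticodon, and leaving out 1 library gave 0 to 15 higher and 0 to 12 lower.

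Of anticodon sums for wild type against empty vector (1 and 0), 1 was also lower at a minimum mean of 10 RPM and without the 3 near-identical entries. When centred 2 were lower, and with median ratio scaling 0 were higher and 2 lower. Over all sums 22.4% were higher and 8.16% lower at that minimum, and 22.2% and 9.26% without the 3 entries. The percentages were 16.7% and 11.1% when centred and 13% and 7.41% with median ratio scaling. Leaving out 1 library could move both counts. For the mutant (0 and 0) 1 was lower without the 3 near-identical entries, SerTGA, against 3.7% higher and 3.7% lower over all sums. Leaving out 1 library could move the count of higher sums. For wild type against mutant (0 and 0) leaving out 1 library gave 0 to 4 higher and 0 to 2 lower.

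With the replicate number as a block the entry counts were 6 and 5, 0 and 0, and 1 and 0 in the 3 comparisons. Over all entries the percentages were 29.6% and 7.64%, 3.99% and 0.332%, and 6.64% and 1.66%. For wild type against empty vector 1 SerAGA sum was higher and 1 LeuTAG sum lower, against 22.2% and 7.41% over all sums. The values gave no sign that the numbers pair the libraries: the correlation of same-numbered deviations was 0.0927, −0.116 and −0.0537 in the 3 pairs of groups. Such correlations cannot show how the libraries were prepared.

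As shares of the own anticodon, which is another quantity, LeuAAG2 had 0.000804, LeuTAG10 0.000176, LeuTAG3 0.0135 and SerAGA75 −0.00726 for wild type; a change of the whole anticodon is removed there by construction. SerCGA4 was lower with wild type than with the mutant without mutant library 1 (−0.20), higher without mutant library 2 (0.32) and at 0.06 with both. Merging near-identical entries, shares of the own anticodon, sums without 3 entries and median ratio scaling were chosen after seeing the data. A lone library left in a group was assumed to vary like the other groups. The planned count test on implied reads was not run. Entries under 1 RPM rest on 15 reads or fewer per library, so counting error is large there.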
